A study of Mus musculus with 16 samples.

Results

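Htr1d, Hao2, Tcf24, Acpp and Tff3 are 5 of the 55291 genes counted in RNA of mouse liver, chosen by symbol for their higher counts in livers that had lost Arid1a than in WT livers. The choice is taken to rest on vehicle-treated Arid1a KO and WT livers at 9 and 30 days, so the differences between these groups are described here and not tested. RNA was taken from whole liver and from isolated tumours, although hepatocytes stand as the cell type in the labels. There were 8 groups of 2 libraries. WT and Arid1a KO livers were collected 9 and 30 days after tamoxifen, and livers lacking both Arid1a and Arid1b (Arid1a/b DKO) at 9 days. These 5 groups received the vehicle DMSO. Further WT and Arid1a KO livers labelled 30 days were exposed to an agonist of a receptor that the labels spell NR1L3, which is not a receptor symbol. The titles of the WT agonist livers say 9 days instead. The tumours carry the genotype Arid1a KO/BcatEXON and no time point or treatment. The names of the WT libraries begin with ALB, and no driver of the deletions is spelled out in the labels. The age and sex of the mice are not given there, and the tumours have no Arid1a-intact counterpart.

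ARID1A and ARID1B are alternative subunits of the BAF complex, which uses ATP to move nucleosomes and so opens or closes promoters and enhancers. A cell that loses ARID1A can still assemble BAF around ARID1B, and losing both removes that class of complex. The 5 genes have little in common by function. Tff3 encodes a secreted trefoil peptide of mucous epithelia, made in quantity by intestinal goblet cells. Htr1d encodes a serotonin receptor that couples to inhibitory G proteins and is best known from neurons. Hao2 encodes a peroxisomal oxidase of long-chain 2-hydroxy acids, and Acpp encodes prostatic acid phosphatase, which in its membrane form also removes phosphate from AMP. Tcf24 encodes a basic helix-loop-helix (bHLH) protein, the family of transcription factors that bind DNA as dimers.

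The 5 genes lie on 5 chromosomes of GRCm38, by the GENCODE M21 annotation. Tff3 occupies chr17:31125306-31129646 on the minus strand with 3 exons, and Htr1d occupies chr4:136423524-136444398 on the plus strand with 4 merged exons. Hao2 lies at chr3:98874521-98893239 (minus strand, 9 exons) and Acpp at chr9:104288251-104337748 (minus strand, 12 merged exons). Tcf24 lies at chr1:9960163-9967932 on the minus strand with 2 merged exons, and shares 619 exon bases with E330040D14Rik on the opposite strand. Without a stated strand setting the reads of this pair cannot be told apart. E330040D14Rik itself stayed at or below 0.481 CPM in all 16 libraries.

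RefSeq start sites on GRCm38.p6 were at hand for 3 of the 5 genes, Htr1d, Hao2 and Acpp. The 250 bases before each start are shown because these 3 genes were all lower in livers lacking both Arid1a and Arid1b than in livers lacking Arid1a alone, as described further on. Capitals mark matches, on either strand, to 7 short motifs chosen with these sequences in view. The TATA box was searched as TATAAA, which 12.4% of 32851 promoters of the same length hold. The CCAAT box, searched by those letters, is held by 33.8% of them. The GC box was searched as GGGCGG, held by 32.7%. One arm of a nuclear receptor site was searched as AGGTCA, held by 14%. One arm of an HNF1 site, a binding sequence of a hepatocyte factor, was searched as GTTAAT, held by 6.43%. The AP-1 site was searched as TGANTCA, held by 6.75%. The E box was searched as CACGTG, held by 6.02%. The windows are chr3:98893231-98893480 (minus strand) for Hao2, chr4:136423274-136423523 (plus strand) for the first start of Htr1d and chr9:104337723-104337972 (minus strand) for Acpp.
Hao2: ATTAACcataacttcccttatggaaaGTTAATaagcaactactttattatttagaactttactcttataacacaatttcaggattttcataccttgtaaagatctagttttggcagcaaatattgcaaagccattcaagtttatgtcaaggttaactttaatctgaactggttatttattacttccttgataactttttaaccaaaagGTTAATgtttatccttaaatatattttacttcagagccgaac
Htr1d: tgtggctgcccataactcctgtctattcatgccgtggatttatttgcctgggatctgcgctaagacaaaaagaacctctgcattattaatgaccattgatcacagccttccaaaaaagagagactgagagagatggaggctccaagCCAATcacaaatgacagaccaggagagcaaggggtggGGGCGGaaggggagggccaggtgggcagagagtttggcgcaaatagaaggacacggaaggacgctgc
Acpp: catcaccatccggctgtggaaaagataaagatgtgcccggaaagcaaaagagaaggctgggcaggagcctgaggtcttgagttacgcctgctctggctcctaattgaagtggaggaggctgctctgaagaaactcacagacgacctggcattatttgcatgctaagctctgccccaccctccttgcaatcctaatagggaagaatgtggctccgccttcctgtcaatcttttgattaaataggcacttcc
The Hao2 window is 28.4% G and C, at the 1.04th percentile of all promoters, where the median is 52.4%. It holds 3 matches to the HNF1 arm, which begin 250, 224 and 42 bases before the start, and 1 CpG. The Htr1d window has 51.6% G and C, with a CCAAT box and a GC box 104 and 67 bases before the start. A second Htr1d start, at chr4:136424362-136424611, has 72.4% G and C, 20 CpG and 3 GC boxes. The Acpp window has 50.4% G and C and none of the 7 motifs. The 3 genes therefore share no motif of this list in these windows, and a match is a run of letters and not a measured binding site.

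Total counts ranged from 7569779 to 47768610 a library, so that 3 counts correspond to 0.0481 to 0.363 CPM (counts scaled to library size, by TMM). The labels give 2 biological replicates per condition, and p-values measure the spread between these samples. Arid1a itself was no lower in the vehicle Arid1a KO livers (76.5 to 95.3 CPM) than in the vehicle WT livers (72.2 to 105 CPM). Counts over the whole gene do not show a deletion of part of it, so they check no genotype, and the groups are those of the labels. Arid1b was lower in DKO than in 9-day WT livers, at 24.5 to 25.7 CPM against 38.0 to 52.8 CPM (log2 -0.85, SE 0.28, edgeR adjusted p = 0.0439, n = 2). On the first principal component (38.7% of the variance), the 30-day Arid1a KO replicate 1 lay at -50.3, close to -56.7 and -57.6 of the 30-day WT livers, and its partner lay at -11.5. Cyp2b10, a classical target of the nuclear receptor CAR, stood at 1835 to 2130 CPM in the 4 agonist livers. It stood at 354 and 324 CPM in replicate 1 of the 30-day vehicle WT and Arid1a KO livers and at or below 8.94 CPM in the other 10 libraries. The tumours differed from the livers and from each other in 2 ways that touch results below. Xist was at 354 and 53.8 CPM in tumours 1 and 2 against at most 0.767 CPM in the livers, and the Y-linked Eif2s3y at 1.02 and 36.4 CPM against at least 54.3 CPM. Counts fell on 502 of 1408 olfactory receptor genes in tumour 1 and on 35 to 85 of them in the other 15 libraries, a group chosen after its values were seen. In RNA of whole tissue, a change in the number of cells of a type and a change in RNA per cell cannot be told apart.

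**Figure D1:**
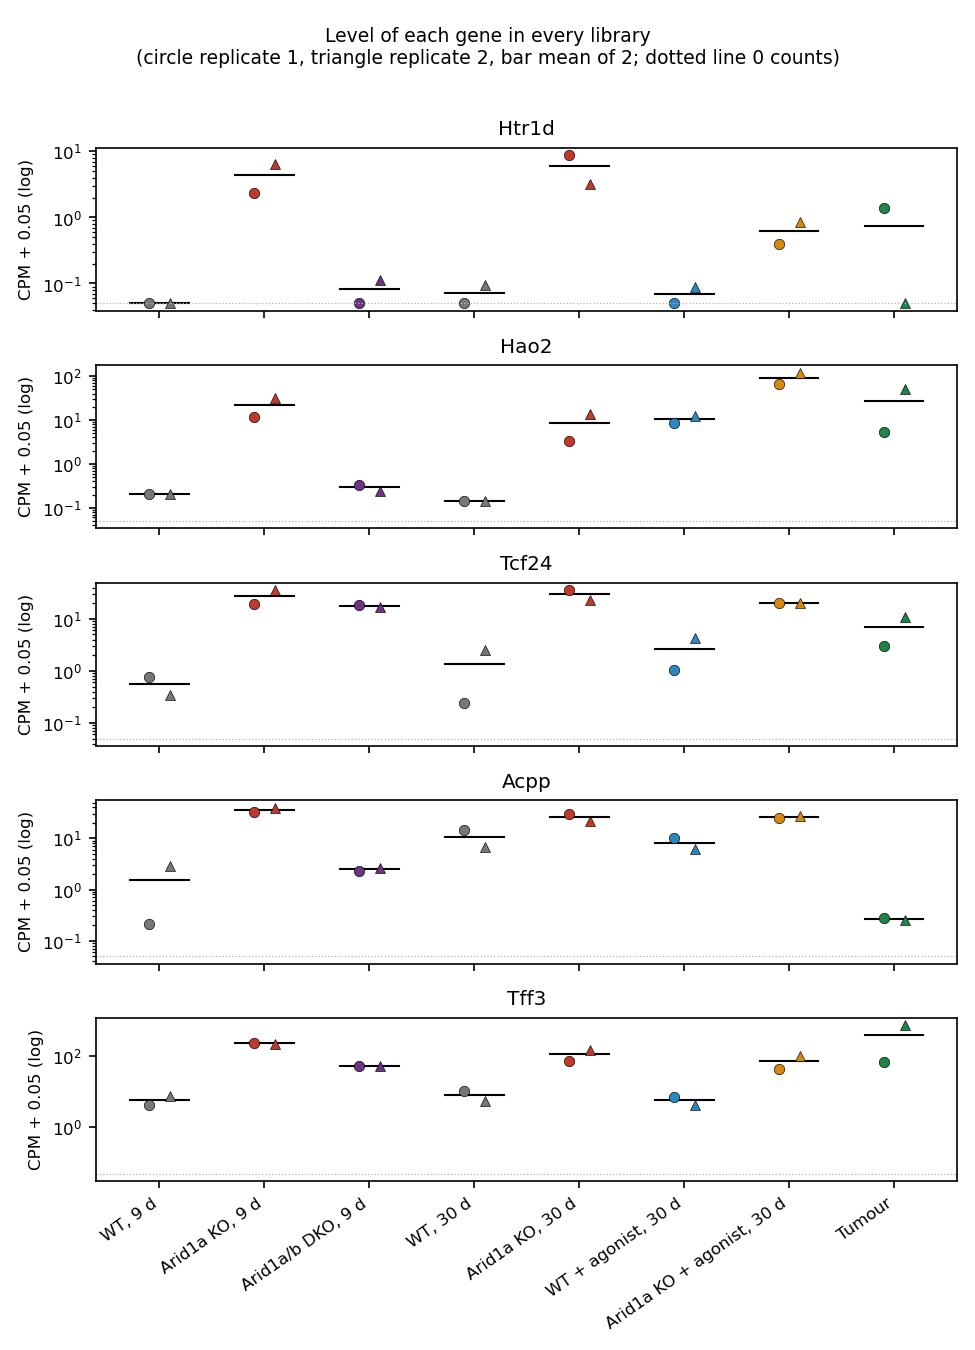
Level of the 5 genes in every library, as CPM + 0.05 on a log axis; circles are replicate 1, triangles replicate 2, bars the mean of 2 and the dotted line 0 counts. The vehicle Arid1a KO livers lie above the vehicle WT livers of the same day for each gene, and the Arid1a/b DKO livers are near WT for Htr1d, Hao2 and Acpp but not for Tcf24 and Tff3.

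All 5 genes were higher in both vehicle Arid1a KO livers than in both vehicle WT livers of the same day, which is how they were chosen. In the fits over all genes, 0.566% of 17831 genes were called at 9 days (0.269% higher, 0.297% lower) and 0.516% at 30 days (0.286% higher, 0.23% lower). A gene is called at an adjusted p under 0.05 of edgeR's quasi-likelihood test. Folds are ratios of the mean CPM of the groups, except that a ratio printed with a counting interval, or as a lower bound, pools the counts of each group over its summed library size. Nothing is read from the count of the 5 genes in these comparisons. The name "turned on" describes Htr1d and Hao2, which were at or near 0 counts in vehicle WT liver, better than Tff3 and Acpp, which had 51 to 225 and 2 to 154 counts in each of those 4 libraries.

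Tff3 had the highest mean CPM of the 5 genes in vehicle Arid1a KO livers at both ages, and the highest per kilobase of exon there. Vehicle WT livers held 4.10 and 7.16 CPM at 9 days and 10.4 and 5.31 CPM at 30 days. Arid1a KO livers held 222 and 214 CPM at 9 days and 70.5 and 146 CPM at 30 days. The KO livers were thus 38.7-fold above WT at 9 days and 13.8-fold above at 30 days in mean CPM, with no overlap between libraries. Per kilobase of exon, the mean level at 9 days was 443 CPM in Arid1a KO, against 1.35 CPM for Htr1d, 4.93 CPM for Acpp, 6.44 CPM for Tcf24 and 10.52 CPM for Hao2.

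Htr1d counts were absent or nearly so wherever Arid1a was intact. It had 0 counts in both 9-day WT livers and 2.30 and 6.34 CPM in the 9-day Arid1a KO livers, at least 71.9-fold higher in pooled counts when the WT group is set to 3 counts in all. At 30 days the WT livers had 0 and 0.0454 CPM (1 count) and the Arid1a KO livers 8.80 and 3.21 CPM, a pooled ratio of 148 with a 95% counting interval of 26.2 to 5880. The highest Htr1d level in the series was that of the 30-day KO replicate 1, the library that lay near WT on the first principal component. Intervals and floors cover counting error only.

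Other genes of serotonin signalling were read beside Htr1d. Of 21 listed receptors, transporters and enzymes of serotonin, 6 were measured well enough to test, and in the vehicle comparisons edgeR called 0 of them at 9 days and 0 at 30 days. With an unadjusted p under 0.05 there were 0 and 1, and DESeq2 also called 0 at both times. Under the agonist, Maoa, the monoamine oxidase that breaks down serotonin, was higher in Arid1a KO (28.9 to 62.9 CPM) than in WT (11.0 to 11.4 CPM), with a log2 fold change of 2.04 (SE 0.31, n = 2, edgeR adjusted p = 0.00783). It was the 1 called gene of the list there. Htr1b, a receptor closely related to Htr1d, did not exceed 0.0401 CPM in any liver, and Htr1f had 0 counts in all 14 livers.

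Hao2 rose from near 0 in the same way. Vehicle WT livers had 0.161 and 0.159 CPM at 9 days and 0.0959 and 0.0908 CPM at 30 days, the latter from 3 counts in all. Arid1a KO livers had 11.9 and 31.2 CPM at 9 days and 3.20 and 13.5 CPM at 30 days. The ratio was 135 at 9 days, and at 30 days the pooled ratio was 119 (95% counting interval 40.3 to 578). Replicate 2 was the higher KO library at both times, by more than 2-fold.

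Its relative Hao1, the abundant glycolate oxidase of liver, stood at 211 to 323 CPM in 9-day WT and 245 to 254 CPM in 9-day Arid1a KO livers. Among 17 tested genes of hydroxyacid oxidation and peroxisomal oxidases, edgeR called 0 at 9 days and 0 at 30 days in the vehicle comparisons. An unadjusted p under 0.05 was reached by 3 and 1 of them, and DESeq2 called 0 at both times. The median log2 of the list was -0.18 and -0.16, beside 0.00 and 0.03 over all genes tested. Under the agonist the list's median was -0.58, beside -0.01 over all genes. There Agxt, the peroxisomal enzyme that removes glyoxylate (log2 -1.72, SE 0.35, edgeR adjusted p = 0.0212), and Paox, a polyamine oxidase (log2 -1.59, SE 0.37, edgeR adjusted p = 0.0370), were lower in Arid1a KO than in WT, n = 2 each.

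Acpp differed between the WT ages as well as between genotypes. The 9-day WT livers had 0.161 and 2.86 CPM and the 30-day WT livers 14.8 and 6.63 CPM. Arid1a KO livers had 32.7 and 39.6 CPM at 9 days and 29.4 and 21.6 CPM at 30 days. The ratio of KO to WT was therefore 23.9 at 9 days and 2.38 at 30 days, the smallest of the 5 genes at both times, while the KO levels at the 2 ages lay within 2-fold of each other. At 30 days the gap between the lowest KO liver (21.6 CPM) and the highest WT liver (14.8 CPM) was narrower than the spread within WT.

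Of 19 tested genes for acid phosphatases and extracellular nucleotide breakdown, 1 was called at 9 days and 0 at 30 days, with 7 and 3 at an unadjusted p under 0.05 in edgeR, and DESeq2 called 1 and 2, all lower. The called gene was Enpp1, an ectoenzyme that makes AMP and pyrophosphate from ATP. It fell from 50.9 to 56.8 CPM in WT to 17.9 to 19.5 CPM in Arid1a KO at 9 days (log2 -1.53, SE 0.26, n = 2, edgeR adjusted p = 0.0273). Under the agonist it was again lower in KO, at 6.60 to 6.79 CPM against 35.5 to 53.9 CPM (log2 -2.74, SE 0.27, edgeR adjusted p = 0.00169, n = 2). Nt5e, the ectoenzyme that turns AMP into adenosine, was higher there in KO, at 118 to 121 CPM against 6.40 to 15.6 CPM (log2 3.49, SE 0.65, edgeR adjusted p = 0.0156, n = 2). Entpd5, a nucleoside diphosphatase, was the third called gene under the agonist (log2 1.10, SE 0.21, edgeR adjusted p = 0.0175, n = 2).

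Tcf24 had low and uneven counts in WT. The 9-day WT livers had 0.724 and 0.286 CPM and the 30-day WT livers 0.192 and 2.45 CPM. Arid1a KO livers had 18.8 and 35.2 CPM at 9 days and 35.6 and 23.4 CPM at 30 days. The ratios were 53.5 and 22.3, and the KO libraries of the 2 ages overlapped. Of 15 tested relatives and dimer partners (bHLH factors, E proteins and Id proteins), edgeR called 0 at both ages, with 0 and 1 at an unadjusted p under 0.05, and DESeq2 called 0 and 0.

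The change between 9 and 30 days within vehicle Arid1a KO compares libraries that all chose the genes, so it too is described and not tested. In the fit over all genes edgeR called 0.0112% of them (0.0112% higher, 0% lower), and nothing is read from the 5 genes there. Mean CPM at 9 days over that at 30 days was 2.59 for Hao2, 2.01 for Tff3 and 1.42 for Acpp. For Htr1d and Tcf24 the 30-day mean was the higher, by ratios of 1.39 and 1.09. The libraries of the 2 ages did not overlap for Acpp and Tff3, and they overlapped for the other three. How many of all genes lacked overlap between these ages was not counted, so nothing is read from this.

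The agonist-treated livers were taken as libraries that did not choose the genes. The stated choice names Arid1a KO livers without excluding these, so the p-values here may not be independent of it. By edgeR's test 2 of the 5 genes, Tff3 and Hao2, were higher in Arid1a KO there. The background was 4.95% of all genes called (3.05% higher, 1.91% lower). All 5 genes had an unadjusted p under 0.05 in edgeR, beside 3827 of the 17831 genes tested. None of the 5 overlapped between genotypes. The share of all genes without overlap was not counted, so nothing is read from this. Tff3 went from 7.01 and 4.04 CPM in WT livers to 42.4 and 100.4 CPM in KO livers (12.9-fold; log2 3.74, SE 0.54, edgeR adjusted p = 0.00614, n = 2). Hao2 went from 8.70 and 12.5 CPM to 65.0 and 120.6 CPM (8.75-fold; log2 3.12, SE 0.61, edgeR adjusted p = 0.0186, n = 2). The Hao2 call was lost when WT agonist replicate 1 (adjusted p = 0.109), WT agonist replicate 2 (0.141) or KO agonist replicate 2 (0.0740) was left out. The Tff3 call was lost without WT agonist replicate 2 (adjusted p = 0.0871).

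Tcf24 missed the threshold narrowly, with 0.967 and 4.16 CPM in WT livers against 20.02 and 19.7 CPM in KO livers (7.75-fold; log2 2.83, SE 0.74, edgeR adjusted p = 0.0527, n = 2). With the replicate number as a block it was called (log2 2.93, edgeR adjusted p = 0.0450). Acpp had 10.3 and 6.04 CPM in WT livers against 25.3 and 26.9 CPM in KO livers (3.2-fold; log2 1.70, SE 0.66, edgeR adjusted p = 0.166, n = 2). Htr1d had 1 count in the 2 WT livers and 0.351 and 0.794 CPM in the 2 KO livers, a pooled ratio of 21.7 (95% counting interval 3.6 to 887; edgeR adjusted p = 0.116, n = 2). Markers of several cell types were read in the same livers. Summed bile duct markers stood at 262 to 385 CPM in KO with agonist against 57.8 to 72.9 CPM in WT with agonist (2 of 10 called higher, 0 lower; 3 higher with the replicate block). Stellate cell markers stood at 539 to 987 CPM against 291 to 303 CPM (2 of 11 called higher, 0 lower; 1 higher with the block). Macrophage markers stood at 898 to 1492 CPM against 523 to 679 CPM (edgeR called 0 of 11, with 3 at an unadjusted p under 0.05, and DESeq2 called 1). Hepatocyte markers stood at 21165 to 22839 CPM against 31331 to 38762 CPM (1 of 10 called lower, 0 higher; 2 lower with the block), and the part of these markers in the differences was not tested.

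**Figure D2:**
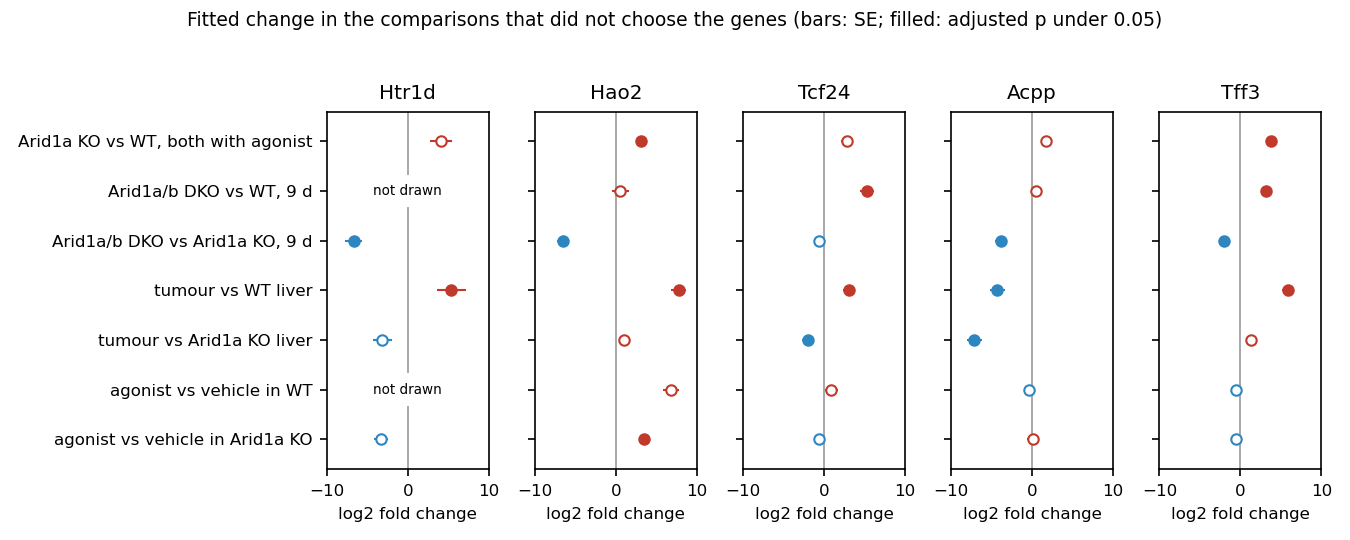
Fitted log2 fold change (points, x axis) with its SE (bars) for each gene in the 7 comparisons of the y axis; filled points have an adjusted p under 0.05, red is higher and blue lower. Changes of Htr1d between groups that are both near 0 counts are not drawn; against Arid1a KO, the Arid1a/b DKO livers were lower for Htr1d, Hao2, Acpp and Tff3.

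Loss of Arid1b in addition to Arid1a went with WT-like levels of 3 of the 5 genes. The 9-day WT and Arid1a KO livers used here are those that chose the genes, as low in WT and high in KO. That choice favours a lower value in DKO than in KO and a higher one than in WT, so the p-values of both comparisons are not independent of it and are given as description. Against Arid1a KO, Htr1d, Hao2, Acpp and Tff3 were lower in DKO and Tcf24 did not pass, beside 22% of all genes called (9.92% higher, 12.1% lower). Against WT, Tcf24 and Tff3 were higher and the other three did not pass, beside 26.4% of all genes called (12.6% higher, 13.8% lower).

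Htr1d had 0 and 0.0641 CPM (4 counts) in DKO, against 2.30 and 6.34 CPM in Arid1a KO (log2 -6.69, SE 1.01, edgeR adjusted p = 0.00178, n = 2). DKO and WT overlapped at 0 counts, and no fold is given between them. Hao2 had 0.287 and 0.192 CPM in DKO, 90-fold below Arid1a KO (log2 -6.49, SE 0.76, edgeR adjusted p = 0.000321, n = 2). These 2 DKO livers were above the WT livers at 0.161 and 0.159 CPM, but by less than the test could call (1.5-fold; log2 0.54, SE 1.05, edgeR adjusted p = 0.736, n = 2). Acpp had 2.22 and 2.61 CPM in DKO, 15-fold below Arid1a KO (log2 -3.89, SE 0.71, edgeR adjusted p = 0.00380, n = 2). These values lay between the 9-day WT livers at 0.161 and 2.86 CPM (log2 0.51, SE 0.68, edgeR adjusted p = 0.613, n = 2), which decided the comparison. Without WT replicate 1 the log2 was -0.25 (adjusted p = 0.777), and without WT replicate 2 it was 3.87 and called (adjusted p = 0.0129).

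Tcf24 kept its high level in the double mutant. It had 18.4 and 16.9 CPM in DKO, 34.9-fold above WT (log2 5.30, SE 0.89, edgeR adjusted p = 0.00202, n = 2). Against Arid1a KO the log2 was -0.61 (SE 0.66, edgeR adjusted p = 0.538, n = 2), and both DKO livers lay just below the lower KO liver at 18.8 CPM. Tff3 took a level between the other groups, with 51.2 and 51.8 CPM in DKO. That was 9.15-fold above WT (log2 3.17, SE 0.52, edgeR adjusted p = 0.00179, n = 2) and 4.23-fold below Arid1a KO (log2 -2.08, SE 0.48, edgeR adjusted p = 0.0127, n = 2). The Tff3 difference from Arid1a KO lost its call without DKO replicate 1 (adjusted p = 0.0719), DKO replicate 2 (0.0601) or KO replicate 1 (0.0536).

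Other cell types and hepatocyte genes moved with the double mutant as well. Of 10 hepatocyte markers 5 were called lower in DKO than in WT and 0 higher, with a list median of -1.15 beside 0.01 over all genes. Of 11 stellate cell and fibroblast markers 7 were called higher and 0 lower (median 2.18), and of 10 bile duct markers 4 were called higher and 1 lower (median 1.79). Summed hepatocyte markers stood at 20659 and 20830 CPM in DKO against 49478 and 25439 CPM in 9-day WT, and the part of this in the 5 genes was not tested. Among the peroxisomal relatives of Hao2, 12 of 17 were called lower in DKO than in WT and 1 higher (median -0.92), led by Pecr, a trans-enoyl reductase (log2 -3.29, SE 0.26, edgeR adjusted p = 3.89e-05, n = 2), and Cat, catalase (log2 -2.55, SE 0.28, edgeR adjusted p = 0.000195, n = 2). Against Arid1a KO, 9 were called lower and 0 higher. Of the 15 bHLH relatives of Tcf24, 4 were called higher in DKO than in WT and 0 lower, among them Twist1 (log2 3.08, SE 0.75, edgeR adjusted p = 0.0155, n = 2), a mesenchymal bHLH factor. Of 6 serotonin genes 1 was called higher, Maoa, and 1 lower, Maob (log2 -2.24, SE 0.18, edgeR adjusted p = 4.21e-05, n = 2), and of 19 phosphatase and nucleotide genes 1 was called higher and 5 lower.

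The vehicle livers of the agonist comparisons also chose the genes, which favours a rise with agonist in WT and a fall in KO. Hao2 was the 1 gene of the 5 called for the agonist, in Arid1a KO livers, and the gene with the highest ratio in WT livers. In WT livers it went from 0.0959 and 0.0908 CPM with vehicle to 8.70 and 12.5 CPM with agonist, a pooled ratio of 125 (95% counting interval 42.5 to 609), with no overlap. The test in WT missed the threshold over all genes (log2 6.77, SE 0.97, unadjusted p = 2.45e-05, edgeR adjusted p = 0.0594, n = 2), where edgeR called 0.028% of genes (0.028% higher, 0% lower). Thus 0 of the 5 genes was called in WT by edgeR, 1 had an unadjusted p under 0.05, and DESeq2 and limma-trend each called 1, Hao2 (adjusted p = 9.7e-08 and 0.0046). With the replicate number as a block Hao2 was called (log2 6.95, edgeR adjusted p = 0.0140). With the 9-day WT livers as vehicle the log2 was 6.02 and was called (edgeR adjusted p = 0.0267). The 30-day WT vehicle replicate with Cyp2b10 at 354 CPM had Hao2 at 0.0959 CPM, no higher than its partner, and without it the log2 was 6.80 (adjusted p = 0.332).

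In Arid1a KO livers Hao2 rose from 3.20 and 13.5 CPM with vehicle to 65.0 and 120.6 CPM with agonist (11.1-fold; log2 3.43, SE 0.62, edgeR adjusted p = 0.0293, n = 2). Of the 5 genes this was the 1 called, beside 0.869% of all genes (0.55% higher, 0.32% lower). The call was lost without KO vehicle replicate 1 (adjusted p = 0.117), KO agonist replicate 1 (0.0651) or KO agonist replicate 2 (0.122). The KO livers given agonist held the highest Hao2 levels of the series, above WT livers given agonist and above vehicle KO livers. The agonist effect on Hao2 in KO minus that in WT was -3.35 on the log2 scale (SE 1.25) and did not pass (unadjusted p = 0.0214, edgeR adjusted p = 0.758, n = 2). For this interaction edgeR called 0 of the 5 genes, 1 had an unadjusted p under 0.05 and DESeq2 called 0, beside 0.00561% of all genes (0% higher, 0.00561% lower).

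The other 4 genes were not called for the agonist in either genotype. Htr1d was lower in KO livers with agonist, at 0.351 and 0.794 CPM against 8.80 and 3.21 CPM with vehicle, 10.5-fold without overlap, but edgeR's test did not pass (log2 -3.28, SE 0.82, unadjusted p = 0.00256, adjusted p = 0.116, n = 2) and DESeq2's did (adjusted p = 0.00802). Acpp, Tcf24 and Tff3 had log2 values of 0.04 (SE 0.63), -0.56 (SE 0.67) and -0.60 (SE 0.47) in KO, with edgeR adjusted p of 0.991, 0.795 and 0.651 (n = 2). In WT their log2 values were -0.40 (SE 0.66), 0.91 (SE 0.77) and -0.52 (SE 0.52), each with an edgeR adjusted p of 1 (n = 2). For Acpp the WT value turned to 2.23 (adjusted p = 0.260) with the 9-day WT livers as vehicle.

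The 2 tumours held very different amounts of Htr1d, Hao2, Tcf24 and Tff3, and similar low amounts of Acpp. The WT and Arid1a KO livers they were compared with are those that chose the genes, with the same bearing on direction as for DKO. Against the mean of 9-day and 30-day WT liver, 4 genes were called higher and Acpp lower, beside 36.6% of 18193 genes called (20.5% higher, 16.1% lower). Against Arid1a KO liver Acpp and Tcf24 were called lower, beside 33.1% of genes called (18% higher, 15.2% lower). Acpp had 0.227 and 0.202 CPM in the tumours from 2 and 4 counts, 144-fold below Arid1a KO liver (log2 -7.13, SE 0.91, edgeR adjusted p = 0.000183, n = 2). It was 28.5-fold below WT liver (log2 -4.29, SE 0.90, edgeR adjusted p = 0.00319, n = 2), although the 9-day WT replicate 1, at 0.161 CPM, lay below both tumours.

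Tff3 stood at 66.9 and 704 CPM in tumours 1 and 2, and Hao2 at 5.22 and 49.7 CPM. Both genes were above all 4 WT livers in both tumours, with log2 values of 5.86 for Tff3 (SE 0.71, edgeR adjusted p = 0.000114, n = 2) and 7.77 for Hao2 (SE 0.95, edgeR adjusted p = 0.000116, n = 2). Against Arid1a KO liver neither passed, with log2 values of 1.32 (SE 0.64, edgeR adjusted p = 0.133, n = 2) and 1.02 (SE 0.67, edgeR adjusted p = 0.263, n = 2). Those values rested on tumour 2: without it they were -1.26 for Tff3 and -1.45 for Hao2, and without tumour 1 they were 2.19 (adjusted p = 0.00683) and 1.86 (adjusted p = 0.0349). Tcf24 had 2.95 and 10.6 CPM, above WT liver (log2 3.09, SE 0.70, edgeR adjusted p = 0.00521, n = 2) and below all 4 Arid1a KO livers (log2 -2.02, SE 0.71, edgeR adjusted p = 0.0460, n = 2). The former call was lost without tumour 2 (adjusted p = 0.140). The latter was lost without tumour 1 (0.238) and without each of the 4 KO livers (0.0634 to 0.125).

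Htr1d had 12 counts (1.36 CPM) in tumour 1 and 0 in tumour 2. The pooled ratio to WT was 32.0 (95% counting interval 4.74 to 1370) and was called (edgeR adjusted p = 0.0367, n = 2), but the groups overlapped at 0 and the log2 was -1.37 without tumour 1. In tumour 1 counts fell on 17 of 18 genes whose symbols begin with Htr, with 10 for Htr1b and 11 for Htr1f, and on 4 of 18 in tumour 2. The Htr1d count of tumour 1 was thus close to those of Htr1b and Htr1f in that library. Its 1408 olfactory receptor genes held 1548 counts in all, fewer per gene than Htr1d. The part of such counts in the Htr1d value, or in the 26 counts of Tcf24 in tumour 1, was not tested. Against Arid1a KO liver Htr1d did not pass (log2 -3.13, SE 1.19, edgeR adjusted p = 0.0637, n = 2).

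**Figure D3:**
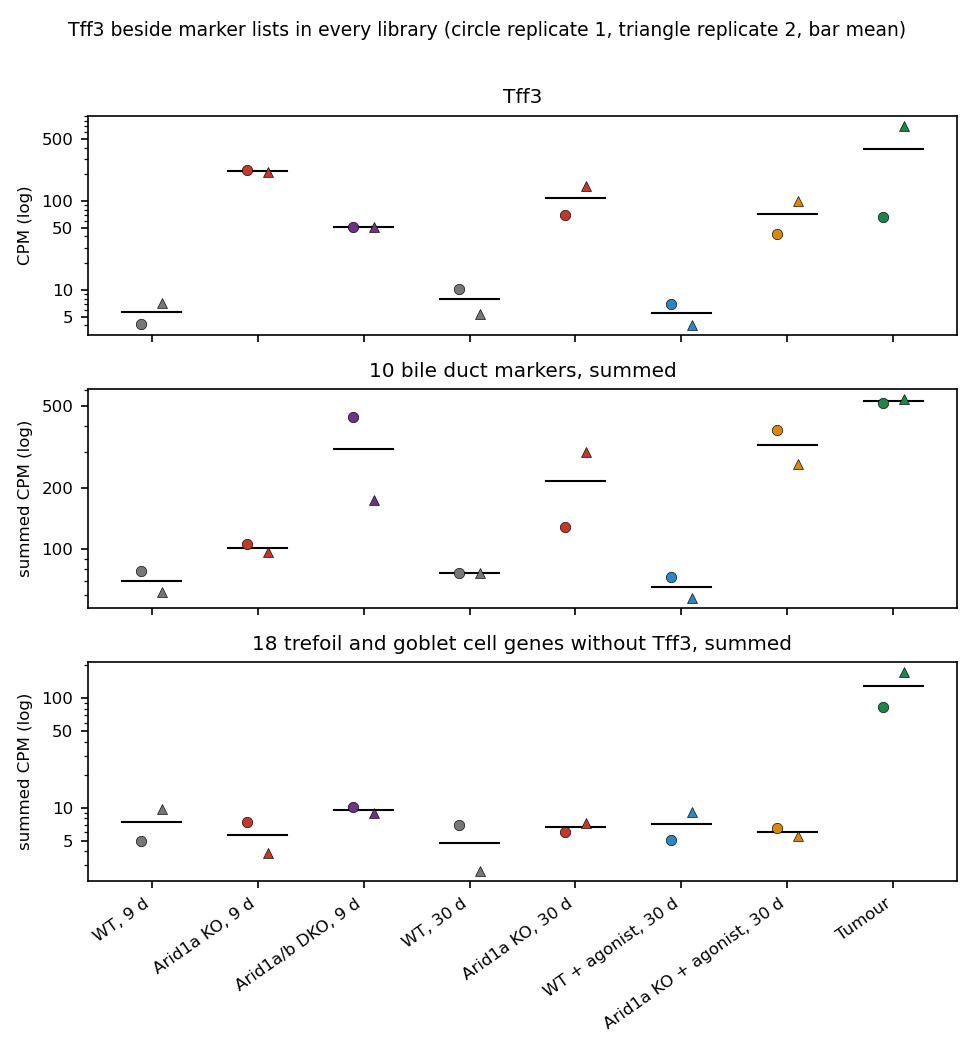
Tff3 (top, CPM), 10 bile duct markers (middle, summed CPM) and 18 trefoil and goblet cell genes without Tff3 (bottom, summed CPM) in every library on log axes; circles are replicate 1, triangles replicate 2 and bars the mean. Tff3 is highest at 9 days among Arid1a KO livers, the bile duct markers are higher in Arid1a/b DKO than in 9-day KO livers, and the goblet cell genes lie between 2.63 and 10.2 CPM in all livers.

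The other trefoil genes and genes of mucus-secreting cells were read beside Tff3. Tff1 and Tff2, the other 2 trefoil peptides, reached at most 2.48 and 0.166 CPM in any library. Of 18 trefoil and goblet cell genes, 6 were tested in the livers, and edgeR called 0 of them in Arid1a KO at 9 days, at 30 days and under the agonist, with 1, 0 and 0 at an unadjusted p under 0.05. DESeq2 called 0 in each. Their summed level was 3.85 to 7.41 CPM in 9-day Arid1a KO and 4.99 to 9.77 CPM in 9-day WT livers. In DKO, where 26.4% of all genes were called against WT, 2 were called higher and 2 lower. Higher were Creb3l1, a transcription factor of secretory cells (log2 3.15, SE 0.58, edgeR adjusted p = 0.00351, n = 2), and the mucin gene Muc4 (edgeR adjusted p = 0.0258, n = 2). Tff1 was one of the lower genes (log2 -3.32, SE 0.80, edgeR adjusted p = 0.0131, n = 2). In the tumours 4 of 8 tested were called higher than in WT liver and 0 lower (median 1.36 beside 0.02 over all genes). Muc13, a membrane mucin, led them at 70.9 to 168 CPM (log2 10.68, SE 0.57, edgeR adjusted p = 1.63e-06, n = 2).

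Bile duct epithelium can also make Tff3, and its markers were read beside it. Their summed level was 61.6 to 78.4 CPM in 9-day WT and 97.6 to 106 CPM in 9-day Arid1a KO livers. At 30 days it was 76.2 to 76.3 CPM in vehicle WT and 129 to 301 CPM in vehicle Arid1a KO livers. The sum was thus higher in KO at both ages, without overlap. EdgeR called 0 of 10 markers in the 9-day comparison and 0 at 30 days, with 2 at an unadjusted p under 0.05 each time, and DESeq2 called 0 and 2 (1 higher, 1 lower). Krt19, a keratin gene of the list, was at 2.97 to 3.19 CPM in 9-day KO against 2.48 to 3.70 CPM in WT. Epcam, an adhesion gene of the list, was at 2.00 to 2.13 CPM against 1.56 to 1.93 CPM. These 2 were named with their values known and do not stand for the 10 markers. Under the agonist 2 were called higher in KO and 0 lower, Ggt1, a glutamyltransferase (log2 7.16, SE 0.99, edgeR adjusted p = 0.00512, n = 2), and Spp1, osteopontin (log2 2.85, SE 0.57, edgeR adjusted p = 0.0191, n = 2). In DKO the markers summed to 174 to 443 CPM. The part of bile duct cells in the Tff3 level was not tested. Kidney proximal tubule, another site of Hao2 expression, gave summed markers of 0.680 to 3.11 CPM in the livers and 8.51 to 9.60 CPM in the tumours, and edgeR called 0 of the 3 tested in Arid1a KO at either age or under the agonist, with 0 at an unadjusted p under 0.05 and 0 called by DESeq2.

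The genes next to the 5 genes were read in the same comparisons. The 3 nearest tested genes on each side give 30 neighbours. EdgeR called 0 of 30 in vehicle Arid1a KO at 9 days and 0 at 30 days, with 4 at an unadjusted p under 0.05 each time, and DESeq2 called 1 each time. Their median log2 was 0.19 and 0.02, beside 0.00 and 0.03 over all genes tested. These counts of 0 stand beside 0.566% and 0.516% of all genes called. Under the agonist 1 was called higher and 1 lower, where 4.95% of all genes were called. In DKO against WT 4 were called higher and 5 lower, beside 26.4% of all genes, and against Arid1a KO 1 higher and 7 lower, beside 22%. These shares lie near those of all genes.

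**Figure D4:**
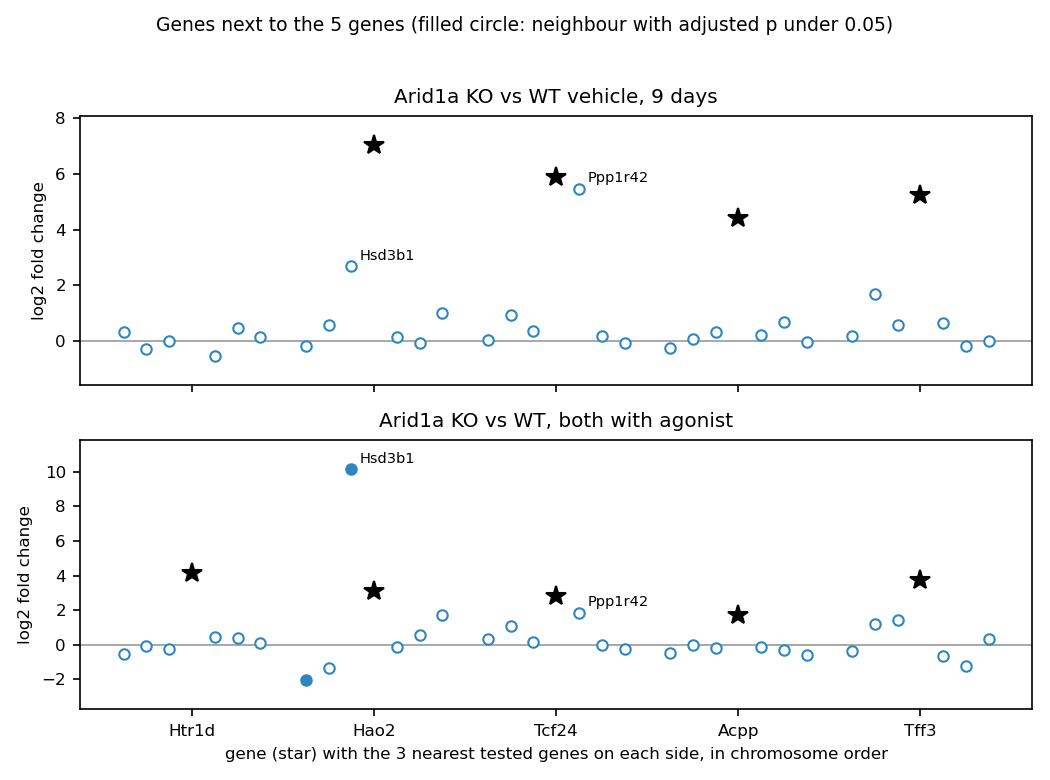
Log2 fold change (y axis) of each gene (star) and of the 3 nearest tested genes on each side in chromosome order (circles, filled where the adjusted p was under 0.05), for Arid1a KO against WT at 9 days (top) and under the agonist (bottom). The star of Htr1d is left out at 9 days because its WT livers had 0 counts; Ppp1r42 beside Tcf24 and Hsd3b1 beside Hao2 are labelled, and the fitted height of Hsd3b1 under the agonist rests on WT livers with 0 counts and gives no size.

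Ppp1r42, a gene for a regulatory subunit of protein phosphatase 1, lies 0.692 kb from Tcf24 on the same strand. It had 0.161 and 0 CPM in 9-day WT and 2.37 and 2.53 CPM in 9-day Arid1a KO livers, without overlap, but missed the threshold (log2 5.47, SE 1.27, edgeR adjusted p = 0.0992, n = 2). Its levels elsewhere followed Hao2 more than its neighbour Tcf24. It had 1.09 and 3.56 CPM in WT with agonist, 6.67 and 10.9 CPM in KO with agonist and 0.406 and 0.0641 CPM in DKO, lower there than in Arid1a KO (log2 -3.42, SE 0.93, edgeR adjusted p = 0.0249, n = 2). Hsd3b1, a steroid dehydrogenase gene 14.7 kb from Hao2, had 0 counts in both WT livers with agonist and 5.69 and 6.32 CPM in KO livers with agonist (edgeR adjusted p = 0.0146, n = 2). Hsd3b2, 150 kb away, was lower in those KO livers, at 21.9 and 23.5 CPM against 88.7 and 95.1 CPM (log2 -2.01, SE 0.44, edgeR adjusted p = 0.0280, n = 2). Genes of this family are near-identical copies among which reads may be split, so these values are uncertain.

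The genes most like each of the 5 over the 16 libraries were found by the root mean square difference of centred log2(CPM + 0.5) among 12667 genes. The measure uses all libraries, including those that chose the genes, and is a description. Nearest to Hao2 were Akr1b7, an aldo-keto reductase (a difference of 1.07), Gsta2, a glutathione transferase (1.39), and Ppp1r42 (1.53). Akr1b7 had 0.322 and 0.955 CPM in 9-day WT, 11.4 and 30.0 CPM in 9-day Arid1a KO, 20.9 and 25.7 CPM in WT with agonist and 43.2 and 59.6 CPM in KO with agonist. It thus shared with Hao2 the high levels in KO and under the agonist. For Akr1b7 the 4 agonist livers were above the 4 vehicle livers of 30 days. For Hao2 they were not, as the 30-day vehicle KO replicate 2 (13.5 CPM) exceeded both WT agonist livers (8.70 and 12.5 CPM). In DKO Akr1b7 had 5.52 and 0.946 CPM, where Hao2 was nearer to its WT level.

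Nearest to Htr1d were Nptx1, a secreted neuronal pentraxin (0.77), and Cdh18, a cadherin (0.84). Nptx1 had 7.63 and 4.13 CPM in 9-day Arid1a KO, 1.85 and 1.496 CPM in 9-day WT and 0.382 and 0.433 CPM in DKO, and its highest level, 11.5 CPM, was in the same 30-day KO replicate 1 as that of Htr1d. Nearest to Acpp were Aqp4, a water channel (1.11), Pag1 (1.29) and Cfhr3 (1.31). Aqp4 had 6.92 and 2.77 CPM in 9-day WT, 31.7 and 29.2 CPM in 9-day Arid1a KO, 0.550 and 1.51 CPM in DKO and 1.82 and 0.0505 CPM in the tumours. Like Acpp it was thus low in DKO and in the tumours. With the tumours left out of the measure, 0 of these 3 remained among the 3 nearest to Acpp.

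Tcf24 was nearest to Pde6c, a cone photoreceptor phosphodiesterase (0.92), Isg15, an interferon-induced ubiquitin-like protein (1.01), and Clic5, an intracellular chloride channel protein (1.02). Pde6c had 0 and 0.191 CPM in 9-day WT, 8.67 and 14.9 CPM in 9-day Arid1a KO and 41.5 and 25.8 CPM in DKO. Isg15 had 15.8 and 17.3 CPM, 68.4 and 109 CPM, and 89.5 and 166 CPM in the same groups. Both were thus high in Arid1a KO and in DKO, the 2 groups in which Tcf24 was high at 9 days. Tff3 was nearest to Ncapg, a condensin subunit of dividing cells (1.04), Oas1a, an interferon-induced synthetase (1.27), and Eno1b, an enolase (1.29). Without the tumours 1 of these 3 remained. Ncapg had 1.45 and 2.23 CPM in 9-day WT, 18.4 and 12.1 CPM in 9-day Arid1a KO and 4.996 and 11.5 CPM in DKO.

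The 5 genes were in part far apart by the same measure. Tcf24 ranked 26th among the genes most like Tff3, and Tff3 ranked 53rd and Htr1d 73rd among those most like Tcf24. From Hao2 the closest of the others was Tff3 at rank 138, and from Acpp it was Htr1d at rank 279. From Htr1d the closest was Tcf24, at rank 6408 of 12667, and Hao2 ranked 12467. Hao2 ranked 11322 from Tcf24, and Tff3 ranked 12178 from Acpp. Nearest to the mean profile of the 5 were Gsta2 (0.85), Stap1 (0.87), Cndp1 (0.90), H2-T10 (0.90) and Ndufs5-ps (0.91). Cndp1, a carnosine dipeptidase, had 0.322 and 0.127 CPM in 9-day WT, 9.63 and 16.6 CPM in 9-day Arid1a KO and 0.0956 and 0.0962 CPM in DKO. Its DKO livers were thus below both 9-day WT livers.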

How the data were processed

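RNA of 14 liver and 2 tumour samples was sequenced as polyA-selected libraries, and the 5 genes and all gene lists were chosen with earlier results of these data known. Per the submitters' processing notes, the authors used fastp, STAR 2.7.3 and featureCounts on GRCm38.p6 (mm10). The strand setting and annotation release: not given in the sources used here. Raw counts per gene and a normalized signal were deposited by the authors; the signal equals the counts divided by 1 factor per library. EdgeR 4.0.16 (R 4.3.3) was run on the deposited counts with TMM scaling, its default filter on low counts, the quasi-likelihood test and Benjamini-Hochberg adjustment over all genes tested. One fit held the 14 livers (17831 genes) and another all 16 libraries (18193 genes, tumour comparisons only). All 5 genes passed the filter, also without the vehicle KO livers that chose them. Levels are TMM-scaled CPM, and per-length levels use GENCODE exon bases. The procedure was tested on simulated data.

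Genes named are the 5 members, up to 4 genes with the smallest p in each of 5 lists around the members and 10 marker lists, the 3 tested neighbours on each side, and the 3 genes most like each member. Hao1, Krt19, Epcam, Htr1b, Htr1f, Tff2, Cyp2b10, Xist, Eif2s3y and others outside this rule were named with their values known. Some results that the rule selects are not reported here. The alternatives tried were DESeq2 1.42.0, RLE scaling, no filter on low counts, limma-trend (limma 3.58.1) on log2(normalized signal + 1), the replicate number as a block, other sets of libraries, a 2-fold threshold, and leaving out each library. The labels name no batch behind the replicate numbers. Among the 4 groups of 30 days, deviations of same-numbered libraries correlated in each of 6 pairs of groups (0.203 to 0.443). The numbers were therefore taken as pairing there, and the blocked value stands beside a result where it changes the call. The block was fitted over every library of a fit, so it also covered groups whose numbers were not taken as pairing. Blocked values are given with that limit.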

Additional observations from a re-analysis of the deposited data

How the results depend on the processing

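Of 294 alternative values of a member's log2 fold change that left out no library, 262 kept their direction and side of the threshold, 8 lost a call, 22 gained one and 2 changed sign. Of 204 values with a library left out, 160 were kept, 20 lost a call, 4 gained one and 20 changed sign. The counts of members called in DKO against WT, DKO against Arid1a KO and tumour against WT stayed within 1.5 times under each alternative run. These comparisons use livers that chose the genes, so the steadiness of these counts is not independent of that choice.

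Without the low-count filter, 5 members were called for KO against WT under the agonist and 5 for tumour against Arid1a KO. With the same setting 1 was called for the agonist in WT, 2 for the agonist in KO and 1 for the interaction. For KO against WT under the agonist, 1 was called with all 16 libraries in the fit and 1 against a 2-fold change, and 0 to 2 with a library left out. For tumour against Arid1a KO, 1 to 4 were called with a library left out. For the agonist in WT, 1 (Hao2) was called by DESeq2, by limma-trend, with only the libraries compared and with 9-day WT livers as control. For the agonist in KO, 2 were called by DESeq2, 0 with all 16 libraries and 0 with only the libraries compared, and 0 to 1 with a library left out. The cause of these shifts was not tested. The number of all genes called moved as well. Over the alternatives that left out no library it ran from 175 to 2468 for KO against WT under the agonist (883 in the main run). It ran from 4035 to 7300 (6025) for tumour against Arid1a KO and from 1 to 393 (5) for the agonist in WT. For the agonist in KO it ran from 9 to 1353 (155), and for the interaction from 1 to 493 (1). Nothing is read from the member counts alone.

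With 9-day WT livers as control, Acpp changed sign for the agonist in WT (2.23) and in the interaction (-2.19). With a library left out, the log2 ranged as follows where its sign changed, with no call unless given above.
For DKO against WT, Acpp ranged from -0.25 to 3.87. For tumour against WT, Htr1d ranged from -1.37 to 6.70. For tumour against Arid1a KO, Hao2 ranged from -1.45 to 1.86 and Tff3 from -1.26 to 2.19. For the agonist in WT, Tcf24 ranged from -0.62 to 3.84, Acpp from -0.87 to 0.27 and Tff3 from -0.94 to 0.0060. For the agonist in KO, Acpp ranged from -0.10 to 0.26 and Tff3 from -1.36 to 0.087. For the interaction, Tcf24 ranged from -4.40 to 0.051, Acpp from -0.23 to 0.91 and Tff3 from -0.84 to 0.62. Between ages in KO, Htr1d ranged from -0.42 to 1.36 and Tcf24 from -0.27 to 0.65.

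The replicate block changed no other call of a member than these: 1 member was called for the agonist in WT (Hao2, log2 6.95, adjusted p = 0.0140), Tcf24 was called for KO against WT under the agonist (log2 2.93, adjusted p = 0.0450), and Htr1d was not called for tumour against WT (log2 5.28, adjusted p = 0.0550). In the comparisons with 9-day livers and tumours the numbers were not taken as pairing samples, since correlations of deviations ranged from -0.0912 to 0.148. The block still covered the 9-day livers when the agonist comparisons were fitted, so the blocked calls of Hao2 and Tcf24 rest in part on libraries without pairing. A block limited to the livers of 30 days was not tested. With the block, 1 of the 15 relatives and partners of Tcf24 was called for KO against WT under the agonist (0 without it), and 0 of 3 exocrine pancreas markers for the agonist in KO (1 without it). Over all genes, the interaction called 9 with the block and 1 without it.

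Of the named most similar genes, 2 of 3 for Hao2, 2 of 3 for Tcf24, 2 of 3 for Acpp and 4 of 5 for the mean profile remained with a prior of 2 CPM. On the 14 livers 0 of 3 for Acpp, 1 of 3 for Tff3 and 2 of 5 for the mean profile remained. At the depth of the shallower libraries, differences of Htr1d, Hao2 or Acpp among groups with fewer than 10 counts were not detectable.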

Other observations

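Of 19 tested genes of acid phosphatases and extracellular nucleotide breakdown, 2 were called for the agonist in Arid1a KO livers, Nt5e higher and Enpp1 lower, beside 0.869% of all genes. Nt5e, which makes adenosine from AMP as Acpp can, stood at 1.83 to 4.19 CPM in 30-day vehicle KO livers and at 118 to 121 CPM with agonist (log2 5.22, SE 0.71, edgeR adjusted p = 0.0103, n = 2). In WT the same livers held 9.63 to 22.9 CPM and 6.40 to 15.6 CPM, without a call (log2 -0.59, SE 0.61, edgeR adjusted p = 1, n = 2). The difference between genotypes in the agonist effect did not pass (log2 5.81, SE 0.92, edgeR adjusted p = 0.103, n = 2). Enpp1 moved the other way in KO (log2 -1.65, SE 0.27, edgeR adjusted p = 0.0188, n = 2), from 19.4 to 22.7 CPM to 6.60 to 6.79 CPM. Replicate 1 of the 30-day vehicle livers carried high Cyp2b10, as given above, and its part in these values was not tested.

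Maoa, the monoamine oxidase among the serotonin genes, was highest in the tumours, at 136 to 303 CPM against 13.5 to 16.3 CPM in vehicle WT livers (log2 3.90, SE 0.32, edgeR adjusted p = 8.25e-06, n = 2). Ggt1 stood at 285 to 309 CPM in the tumours, 10.7 to 16.9 CPM in KO livers with agonist and at most 0.722 CPM in the other livers. The remaining marker lists had 0 calls by edgeR in vehicle Arid1a KO at 9 and at 30 days (endothelial, macrophage, lymphocyte, neutrophil, stellate, hepatocyte and exocrine pancreas). An unadjusted p under 0.05 was reached by 2 stellate markers at 9 days and by 4 stellate, 2 macrophage and 1 lymphocyte marker at 30 days, and by 0 of the others. DESeq2 called 1 stellate gene higher at 30 days and 0 in the others. In DKO against WT, 3 of 10 endothelial, 1 of 11 macrophage and 1 of 9 neutrophil markers were called higher and 0 lower, and no lymphocyte marker was called. In the tumours against WT, where 36.6% of all genes were called, 8 of 10 endothelial, 6 of 11 macrophage and 4 of 10 lymphocyte markers were called lower. Higher were 1 endothelial marker, Lyve1 (log2 2.52, SE 0.63, edgeR adjusted p = 0.00899, n = 2), 1 macrophage marker, Cd68 (log2 3.96, SE 0.49, edgeR adjusted p = 0.000131, n = 2), and no lymphocyte marker. Exocrine pancreas had 3 tested markers in the livers, of which Cela3b was called higher in KO than in WT under the agonist (edgeR adjusted p = 0.0271, n = 2). Cela1 (log2 -1.33, adjusted p = 0.156) and Cela2a (log2 -0.65, adjusted p = 0.522) did not pass, and the summed level of the list was 23.6 to 28.4 CPM in KO against 45.3 to 59.2 CPM in WT.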
